A study of Mus musculus with 8 samples.

Results

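Total RNA was compared between mouse embryonic stem (ES) cells and the epiblast-like aggregates (ELA) that they form when they leave the naive state of pluripotency. All genes of the deposited table were taken, 3160 of 3160, in 4 of the 8 libraries of the series, and the comparison was made over samples. The other 4 libraries hold RNA that came down with ribosomes on an anti-Rpl10a antibody, and enter here only 1 alternative fit and the values of 3 genes in the closing section. ES input (2 libraries, day 0 in vitro) came from the line E14Tg2A of strain 129/Ola, grown on gelatin in fetal calf serum with leukemia inhibitory factor (LIF). ELA input (2 libraries, day 2) came from the same line after serum and LIF had been withdrawn and the cells had floated as aggregates in a chemically defined minimal medium with the supplements N2 and B27, without vitamin A. No drug or allele differed between the stages. Before lysis, cells of both stages were trypsinised and kept in cycloheximide, which stalls ribosomes. Nuclei and debris were then spun out, so that "total RNA" here is the RNA of a cleared lysate, depleted of ribosomal RNA. All libraries come from 1 cell line, and the stages differ in medium, serum, LIF and attachment at once, which cannot be told apart.

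Naive ES cells correspond to the epiblast before implantation and are held in that state by LIF, which acts through the receptor Lifr and the transcription factor Stat3 on a network that includes Nanog, Klf4, Klf2 and Tfcp2l1. When LIF is removed, autocrine Fgf4 acts through ERK to release the cells from this network, and they pass into a formative and then primed state like that of the epiblast after implantation, which switches on Dnmt3b and can give rise to all germ layers. Without signals that induce mesoderm or endoderm, epiblast cells in a minimal medium take a neural path.

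The input libraries were of unequal depth. Over the genes of the table the ES input libraries held 5380139 and 3898414 reads, and the ELA input libraries 159587 and 410192, and the median gene had 806, 591, 26 and 66 reads. In ELA input replicate 1, 381 genes had under 10 reads, and the study's methods left this library out because it correlated poorly with the others, mapped less well and held many duplicates. It is kept here, and each result was also computed from ELA input replicate 2 alone. That fit holds 1 ELA library, so its spread comes from the ES libraries and a variance pooled over genes. Calls in it, defined below, are not replicated support. Replicates correlated over genes with r = 0.99 in ES and 0.98 in ELA on the log2 scale, but these genes had been filtered by the authors for close replicate ratios. Values below are normalised counts, meaning reads divided by a library factor that sets the bulk of genes equal, so that a change is relative to the other genes and not an amount per cell. Log2 changes are ELA minus ES on the scale log2(normalised count + 1). A value after ± is the standard error that limma gives for 2 libraries per stage, mostly from a variance pooled over genes. It does not use the number of reads behind each value. For genes with few ELA reads it can lie below the counting error, and their p-values can be too small. A gene is called when its adjusted p from limma is below 0.05. In such bulk samples, fewer cells that carry a transcript and less of it per cell cannot be told apart.

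Total RNA changed widely between the stages. Of the 3160 genes, 2045 were called (64.7%), 1020 of them higher in ELA (32.3%) and 1025 lower (32.4%). Changes over 2-fold were called in 336 genes that rose (10.6%) and in 238 that fell (7.53%). The middle 95% of the log2 changes lay between -1.53 and 1.97, and the median was -0.01. With ELA input replicate 2 alone, the middle 95% lay between -1.54 and 1.96, and 0 of the 2045 called genes had the other sign. Without ES input replicate 1, the middle 95% lay between -1.48 and 1.97. When the authors' own library factors were used, the median change moved to -0.12 and the larger changes turned from mostly higher to mostly lower, 284 higher and 311 lower. The table holds only genes that reached a mean of 50 normalised counts in ES or ELA and whose replicate ratios lay close, so that genes silent in both stages are missing and p-values are too small.

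**Figure D1:**
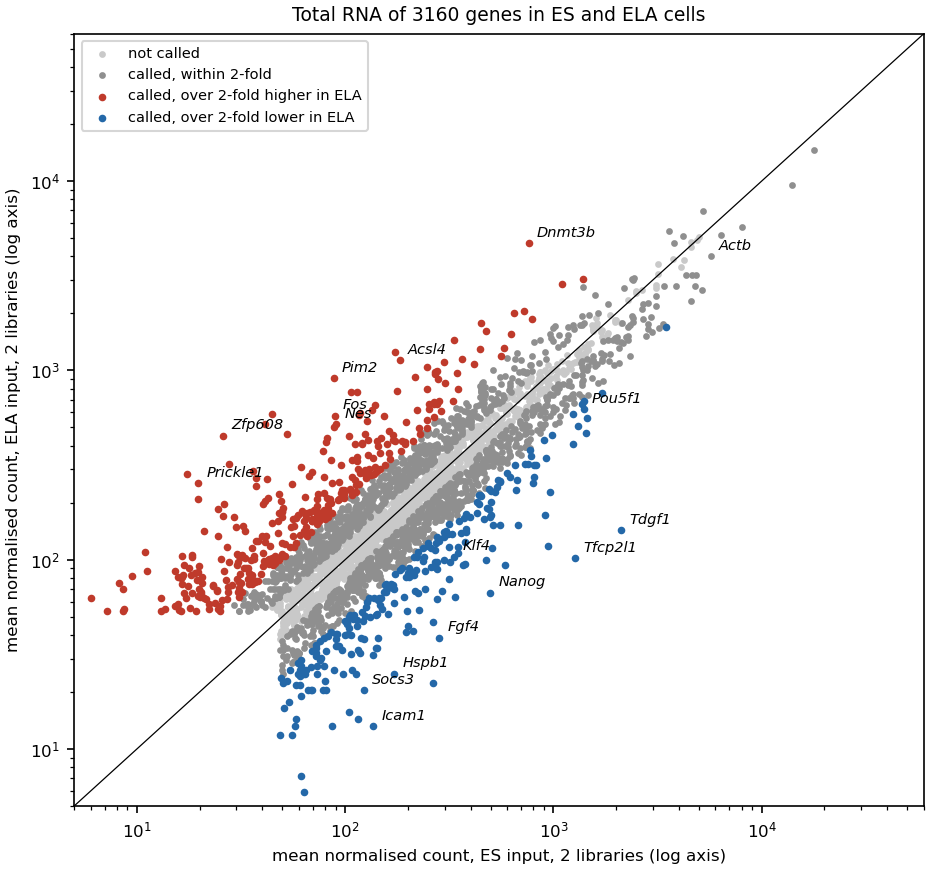
Mean normalised count of each of the 3160 genes in ES input (x axis) and ELA input (y axis), both log axes, 2 libraries each. Red and blue points are the 336 and 238 genes called over 2-fold higher or lower in ELA, and the line marks equal values. Tdgf1 and Tfcp2l1 lie farthest below the line among the abundant genes, and Dnmt3b, Pim2 and Zfp608 far above it.

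Long transcripts tended to be higher in ELA and short ones lower. In the shortest of 5 equal classes of genes, with transcripts of 341 to 2205 bases, the median log2 change was -0.41, and 55.8% of the genes were called lower against 14.6% called higher. In the longest class, from 5978 bases up, the median was 0.35, with 15.4% called lower and 52.6% higher. Across 3120 genes the rank correlation of the change with transcript length was 0.36, and with GC content it was -0.14, where genes are not independent replicates. The order of the medians was the same with ELA input replicate 2 alone, from -0.41 in the shortest to 0.33 in the longest class. The gene groups below are therefore also given after a correction of every library for length and GC content, called the correction from here on. Of 2017 called genes with a known length, 1540 stayed called in the same direction after this correction and 139 had the other sign, while all 562 of the larger changes stayed called. With the correction 977 of the 3120 genes were called higher and 992 lower. The part of length in the calls was not tested.

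**Figure D2:**
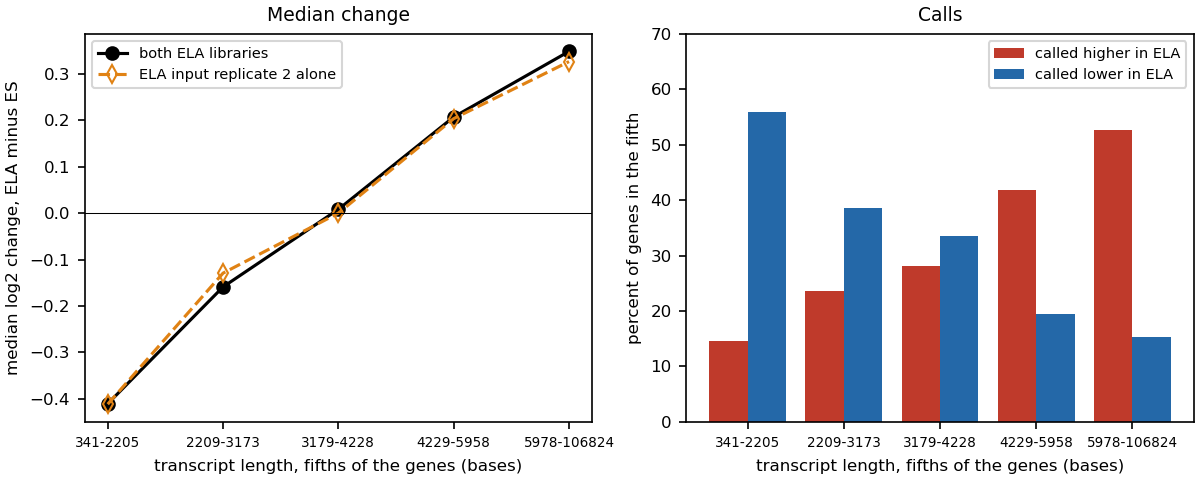
Change in total RNA by transcript length, in 5 equal classes of the 3120 genes with a known length (x axis, bases). Left, the median log2 change, ELA minus ES, rises from -0.41 to 0.35 with both ELA libraries and in the same order with replicate 2 alone. Right, bars give the percentage of genes of each class called higher (red) or lower (blue) in ELA.

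The 12 genes that rose most did so from a low level in ES cells, which their choice favoured. They were ranked by log2 change, and a gene below the table's minimum mean count in ES was kept only if ELA reached it. Zfp608, a zinc finger gene, held 29.4 and 22.5 normalised counts in ES and 472 and 431 in ELA, a log2 change of 4.08 ± 0.16 (adjusted p = 7.98e-40). Fam199x, whose function is little known, went from 15.9 and 18.8 to 259 and 307 (3.95 ± 0.17). Sh3bgrl, a small thioredoxin-fold protein, went from 43.0 and 45.6 to 498 and 684 (3.69 ± 0.15). In all of these genes the ELA libraries lay far above the ES libraries. Sema6a, a transmembrane semaphorin, rose from 39.3 and 42.8 to 472 and 569. Prickle1, a core component of planar cell polarity, rose from 20.4 and 18.8 to 252 and 255. Pim2, a serine/threonine kinase that promotes survival and is a known marker of the primed state, rose from 81.3 and 94.5 to 850 and 969 (3.36 ± 0.14, adjusted p = 3.03e-38). The other members were Greb1l (log2 change 3.48), which is needed for kidney development, Enpp2 (3.33), which makes lysophosphatidic acid, Stk39 (3.23), a kinase of ion transport, the synaptic adhesion gene Nrxn2 (3.16), the axonal motor Kif1a (3.10) and the potassium channel Kcnh8 (3.05).

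The 12 largest falls included Tfcp2l1, Nanog and Fgf4 of the naive list. Tdgf1 (chr9:110939608-110946158), which encodes Cripto, the co-receptor of Nodal, held 2089 and 2145 normalised counts in ES and 146 and 140 in ELA, a log2 change of -3.88 ± 0.13 (adjusted p = 2.22e-45) or 14.8-fold lower. Tfcp2l1 (chr1:118627923-118685168), a naive transcription factor downstream of LIF, went from 1229 and 1304 to 113 and 91.0 (-3.63 ± 0.14). Icam1, a cell adhesion molecule of the immunoglobulin family, went from 133 and 139 to 13.3 and 13.0 (-3.28 ± 0.18). Its ELA values rest on 2 and 5 reads, and the ratio of summed reads was 10.4-fold lower with an exact 95% counting interval from 5.02 to 25.9. AU018091, a gene of unnamed function, went from 268 and 257 to 26.6 and 18.2, on 4 and 7 ELA reads. Ahnak, a giant scaffold protein, went from 893 and 986 to 120 and 117 (-2.98 ± 0.14). Pdzd2 had 1 and 2 reads in ELA and was 11.4-fold lower on summed reads (interval 3.87 to 55.3), and Bre, with 1 and 3 reads, was 8.19-fold lower (3.18 to 30.2). Lrrc2, with 2 and 6 reads, was 7.73-fold lower (3.91 to 18.0), the small heat shock protein gene Hspb1, with 4 and 9, 7.04-fold (4.11 to 13.3) and the growth factor gene Pdgfc, with 2 and 7, 6.24-fold (3.27 to 13.7). Nanog (-2.88) and Fgf4 (-2.85) completed the list. In none of the 24 genes did the groups overlap, which the choice of the genes required.

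**Figure D3:**
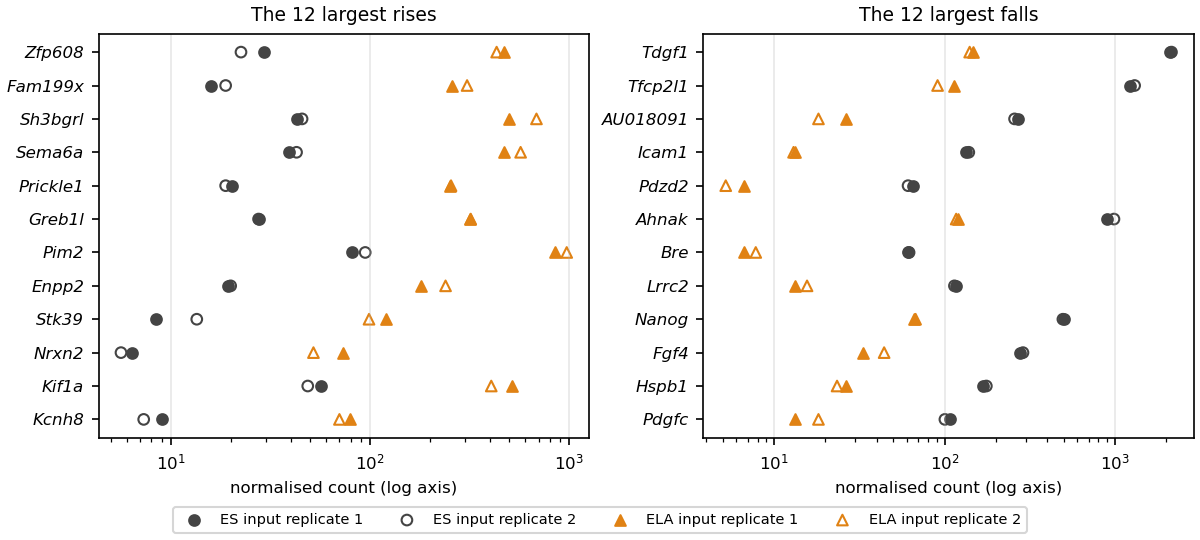
Normalised counts (x axis, log scale) of the 12 largest rises and 12 largest falls in the 4 input libraries. Grey circles are ES libraries and orange triangles ELA libraries, filled for replicate 1 and open for replicate 2. The stages do not overlap in any of these genes, as their choice required, and the lowest ELA values, near 5.20 and 6.64 in Pdzd2, stand for 2 and 1 reads.

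Every listed naive gene that the table holds fell. All 7 members of a list of 31 naive pluripotency genes were called lower, against 32.4% of all genes, with a median log2 change of -2.13 beside -0.01 over all genes. Their summed normalised count was 3220 and 3269 in ES and 565 and 533 in ELA. Nanog, a homeobox factor at the centre of the naive network, had 502 and 495 normalised counts in ES and 66.4 and 67.6 in ELA (-2.88 ± 0.15, adjusted p = 4.16e-32). Fgf4, the growth factor that ES cells make for themselves, went from 279 and 288 to 33.2 and 44.2 (-2.85 ± 0.16). Tdh, a threonine dehydrogenase on which mouse ES cells depend, went from 529 and 481 to 126 and 104 (-2.13 ± 0.14). Klf4 went from 322 and 343 to 106 and 101, and Klf2 from 275 and 279 to 93.0 and 85.8. Zfp459, the smallest change of the list, still fell by 1.31 on the log2 scale. The median was -2.27 with ELA input replicate 2 alone and -1.71 with the correction for length and GC. Nanog and Pou5f1 have processed pseudogenes that could share their reads.

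Genes of pluripotency in general split in direction. Of 11 members, 2 rose, 5 fell, Tdgf1 among them, and 4 were not called, with a median of -0.27 (-0.16 with the correction). Pou5f1, which encodes Oct4, had 1539 and 1256 normalised counts in ES and 671 and 572 in ELA, a fall by 1.16 ± 0.13 on the log2 scale. Dppa2, a gene of the early embryo and germ line, fell from 355 and 381 to 99.6 and 88.4. Mybl2, a cell cycle transcription factor, fell from 955 and 863 to 166 and 179. Trim28, a co-repressor that silences retroviruses, fell by 0.92. Lin28b and Zfp281 rose (1.49 and 0.43), while Sall4 (0.26, adjusted p = 0.0673) and Lin28a (0.12, adjusted p = 0.409) were not called. With ELA input replicate 2 alone 4 members were called higher rather than 2 and the median was -0.0043. Over all genes 32.3% were called higher and 32.4% lower. Sox2, Zfp42, Esrrb, Nr0b1, Fgf5 and Eomes were not analysed here.

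Genes of the formative and primed epiblast rose for the most part. Of 10 members in the table, 8 were called higher, against 32.3% of all genes, 1 fell and 1 was not called, with a median of 1.45 (1.26 with the correction for length and GC). Dnmt3b (chr2:153649411-153687730), a de novo DNA methyltransferase, had 771 and 748 normalised counts in ES and 4935 and 4455 in ELA (2.62 ± 0.12, adjusted p = 3.56e-35). The ELA libraries lay far above the ES libraries. Sox11, a factor of epiblast and neural cells, went from 121 and 148 to 598 and 632 (2.19 ± 0.14). Mapk12, a p38 kinase, rose by 1.81 and the zinc finger gene Zic5 by 1.42. Dnmt3a rose by 0.71, but its change was 0.05 with the correction for length and GC. Bmp4 fell from 82.4 and 87.8 to 33.2 and 49.4 (-1.05 ± 0.18). With 5 and 19 ELA reads, Bmp4 was 1.89-fold lower on summed reads (counting interval 1.26 to 2.97). Grhl2, an epithelial factor, was not called (0.07, adjusted p = 0.674).

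Markers of other cell types were few in the table. Of 6 early neural genes, 4 rose and 2 fell, where 32.3% and 32.4% of all genes did, with a median of 1.63 (1.38 with the correction), and their summed normalised count went from 840 and 799 in ES to 1793 and 1825 in ELA. Nes, the intermediate filament nestin of neural progenitors, had 90.8 and 90.9 normalised counts in ES and 545 and 499 in ELA (2.51 ± 0.14). Prtg, a receptor of the early neural plate, rose by 2.31, the microtubule protein gene Map2 by 2.03 and the adhesion gene Ncam1 by 1.23. Vim and Nefl, which encode further intermediate filaments, fell (-0.89 and -0.84). Of 3 genes shared with extra-embryonic endoderm, Lrp2 rose (0.74) and the laminin genes Lama1 (-0.78) and Lamb1 (-0.60) fell, and Lrp2 was not called with the correction. Their sum was 978 and 897 in ES and 1089 and 1055 in ELA. Of the lists for mesoderm, trophectoderm and fibroblasts, 0 genes were in the table, so these cells could not be checked.

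**Figure D4:**
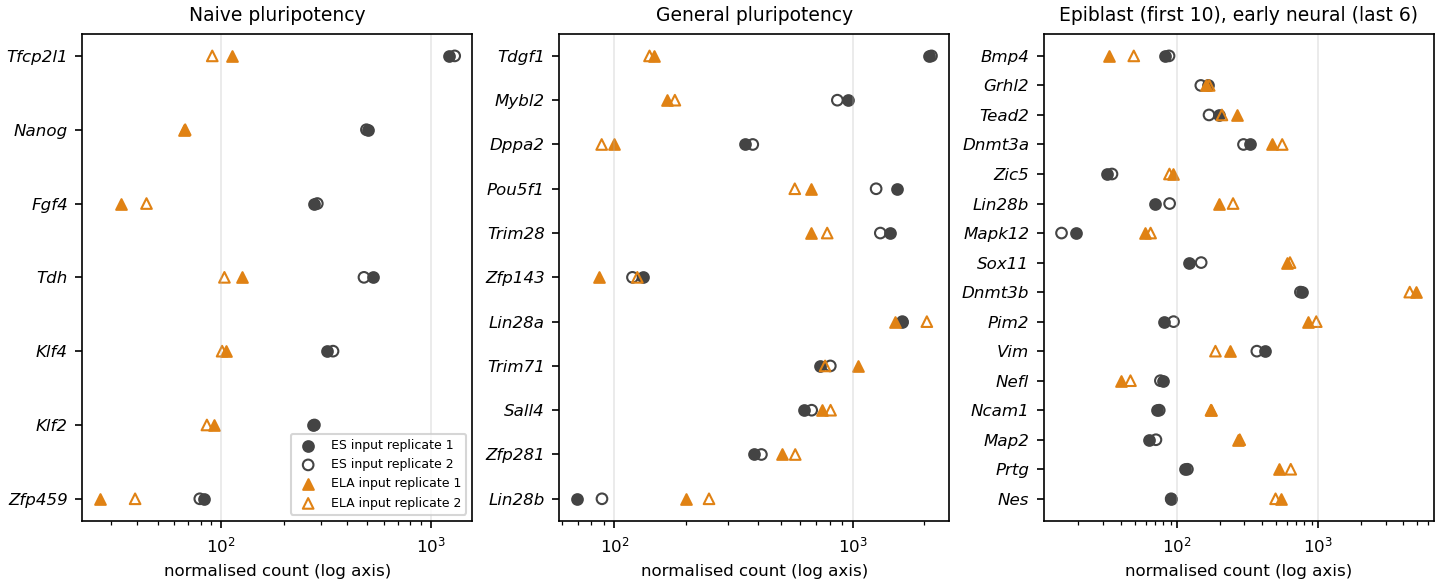
Normalised counts (x axis, log scale) of the naive, general pluripotency, epiblast and early neural genes in the 4 input libraries, each list ordered by its change. Grey circles are ES and orange triangles ELA, filled for replicate 1 and open for replicate 2. All 7 naive genes are lower in both ELA libraries, as are 1316 of the 3160 genes of the table, and Dnmt3b, Pim2 and Nes are higher by over 5-fold.

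The LIF receptor, its transcription factor and their feedback inhibitor fell. Of 5 members, 3 were called lower, against 32.4% of all genes, and 2 were not called. The median was -1.49, -2.07 with the correction and -0.76 when genes under 10 reads on average in a group, here Socs3, were left out, and with ELA input replicate 2 alone 1 member was called higher. Lifr, the LIF receptor, had 447 and 486 normalised counts in ES and 166 and 164 in ELA (-1.49 ± 0.14). Stat3, its transcription factor, had 197 and 200 in ES and 53.1 and 54.6 in ELA (-1.87 ± 0.16). With 8 and 21 ELA reads, Stat3 was 3.67-fold lower on summed reads (counting interval 2.54 to 5.49). Socs3, the feedback inhibitor that Stat3 induces, fell from 123.1 and 122.9 to 19.9 and 20.8 (-2.54 ± 0.17), on 3 and 8 ELA reads. The inhibitor Socs2 and the phosphatase gene Ptpn11 were not called (0.14 and -0.03).

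In the FGF and ERK pathway the calls lay near the shares of all genes (32.3% higher, 32.4% lower). Of 19 members, 8 rose, 6 fell and 5 were not called, with a median of -0.03, and with the correction 6 were higher and 7 lower. The median was 0.09 with ELA input replicate 2 alone. Spry4, a feedback inhibitor that ERK induces, went from 525 and 647 normalised counts in ES to 93.0 and 93.6 in ELA (-2.63 ± 0.14). The ERK-responsive ETS factors Etv1 and Etv5 fell (-0.94 and -0.82). The receptors Fgfr1 and Fgfr2 each rose by 0.85, the GTPase gene Nras by 0.71, the kinase gene Braf by 0.87 and Nf1, a brake on RAS, by 1.30. For Braf the change with the correction for length and GC was 0.20 and for Nf1 0.62.

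In the WNT and TGF-beta lists most members rose, where 32.3% of all genes were called higher. In the WNT list 12 of 18 members rose and 1 fell, with a median of 0.41 and of 0.40 with the correction. The WNT receptor Fzd3 had 38.7 and 36.0 normalised counts in ES and 286 and 252 in ELA (2.81 ± 0.16). Bcl9, a co-activator of beta-catenin, rose by 1.41, Gsk3b, the kinase that marks beta-catenin for destruction, by 1.32, and Amer1, part of the destruction complex, by 1.14, whereas Dvl2, which carries the receptor signal, fell by 1.15. The list holds the symbol Tcf3, which in this table lies on chromosome 10 and is the E-protein gene, not the WNT factor once given that name. In the Nodal, TGF-beta and BMP list 11 of 15 rose and 4 fell, with a median of 0.70 (0.63 with the correction). The receptors Acvr2b, Tgfbr1 and Bmpr1a rose (1.35, 1.14 and 1.01), as did Trim33, a partner of Smad proteins (1.38), and Smad1 (1.03). Besides Tdgf1 and Bmp4, the co-repressors Tgif1 and Skil fell (-0.68 and -0.32).

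Other signalling lists held both directions, where 32.3% of all genes were called higher and 32.4% lower. In the NOTCH list Notch2 rose by 1.59 from 115.5 and 111.7 to 391.9 and 301.5 normalised counts, and Rbpj, the DNA-binding factor of the pathway, fell by 1.37, in all 4 of 7 up and 1 down with a median of 0.53. With the correction 2 were up and 2 down, with a median of 0.12, and with ELA input replicate 2 alone the median was 0.33. In the insulin, PI3K and mTOR list 9 of 15 rose and 1 fell, among the former the receptor gene Igf1r (1.73), and with the correction 7 were higher and 5 lower. With ELA input replicate 2 alone 10 were higher and 0 lower. The pair of retinoic acid genes, the receptor Rarg (-1.50) and the co-activator Ncoa3 (-2.08), fell, also with the correction (median -1.93). Among 14 serum response and immediate early genes 7 rose and 3 fell, with a median of 0.32 (0.49 with the correction). Fos, a subunit of AP-1, had 85.7 and 92.6 normalised counts in ES and 591 and 561 in ELA (2.68 ± 0.14), and Jun and Jund rose by 1.21 and 1.08. Actb, a target of serum response factor, fell by 0.51, and its change was -0.08 with the correction.

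The promoters of 4 genes that moved are shown with motifs of factors of pluripotency, LIF signalling and sterol synthesis. All 4 hold a match, so they do not stand for the genes that moved. They are the 250 bases before the start of each gene in RefSeq (GRCm38.p6, the mm10 build, all on the plus strand), 5′ to 3′, where 2547 genes of the table had such a sequence. Capitals mark TTTGCAT (recognised by Oct4) and the SOX core ACAATG in Nanog (chr6:122707239-122707488), the STAT motif TTCCNGGAA in Icam1 (chr9:21015690-21015939), the octamer ATGCAAAT and its part TTTGCAT in Pim2 (chrX:7878056-7878305), and the sterol element TCACCCCAC in Hmgcs1 (chr13:119690101-119690350), each on either strand.
Nanog: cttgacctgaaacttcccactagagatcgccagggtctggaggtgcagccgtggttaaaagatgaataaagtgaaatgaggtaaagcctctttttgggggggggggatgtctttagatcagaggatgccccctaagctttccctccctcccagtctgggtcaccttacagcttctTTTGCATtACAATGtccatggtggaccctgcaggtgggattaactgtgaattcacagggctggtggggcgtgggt
Icam1: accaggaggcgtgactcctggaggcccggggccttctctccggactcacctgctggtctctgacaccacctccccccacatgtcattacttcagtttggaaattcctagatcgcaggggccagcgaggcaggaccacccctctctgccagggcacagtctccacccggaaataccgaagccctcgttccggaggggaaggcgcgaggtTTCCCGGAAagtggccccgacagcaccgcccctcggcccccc
Pim2: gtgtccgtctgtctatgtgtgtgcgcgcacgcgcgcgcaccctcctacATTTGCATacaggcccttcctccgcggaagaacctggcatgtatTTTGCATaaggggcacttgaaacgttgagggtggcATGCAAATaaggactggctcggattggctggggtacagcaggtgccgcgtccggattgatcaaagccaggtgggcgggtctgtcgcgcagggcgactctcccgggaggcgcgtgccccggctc
Hmgcs1: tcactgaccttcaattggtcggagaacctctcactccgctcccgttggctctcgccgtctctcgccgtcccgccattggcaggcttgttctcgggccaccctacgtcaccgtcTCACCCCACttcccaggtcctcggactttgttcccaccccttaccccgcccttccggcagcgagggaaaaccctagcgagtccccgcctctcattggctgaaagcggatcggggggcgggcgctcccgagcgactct
In Nanog the first motif begins 75 bases before the start and the SOX core 67 bases before it. In Icam1 the STAT motif begins 42 bases before the start, and in Hmgcs1 the sterol element 137 bases before it. Pim2 holds 2 octamers, the farther one 202 bases before the start, and a lone TTTGCAT at 158. Over windows of 250 bases before to 50 bases after the start, the STAT motif was in 6 of 191 promoters of genes over 2-fold lower (3.14%), in 1 of 259 of genes over 2-fold higher (0.386%), in 1.33% of the table's genes and in 1.15% of all 27025 promoters. The octamer was in 6 of 259 of the higher (2.32%), 3 of 191 of the lower (1.57%), 1.22% of the table and 1.75% of all promoters. The AP-1 motif TGACTCA was in 4 of the higher (1.54%), 13 of the lower (6.81%), 2.36% of the table and 5.17% of all. The sterol element was in 3 of the higher (1.16%), 1 of the lower (0.524%), 0.510% of the table and 0.522% of all. TTTGCAT was in 3.86% of the higher, 4.19% of the lower, 2.71% of the table and 4.59% of all promoters. It is contained in the octamer, so these matches overlap. ACAATG was in 5.79% of the higher, 7.85% of the lower, 5.77% of the table and 12.8% of all promoters. A match of letters is a description and not a bound site.

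Genes of the respiratory chain fell, where 32.4% of all genes were called lower. In the respiratory chain and ATP synthase, 24 of 27 nuclear genes were called lower and 0 higher, with a median of -0.88. Ndufa9, a subunit of complex I, had 202 and 197 normalised counts in ES and 39.9 and 49.4 in ELA (-2.15 ± 0.16). With 6 and 19 ELA reads, Ndufa9 was 4.28-fold lower on summed reads (counting interval 2.89 to 6.64). Cox7a2 and Cox7b of cytochrome oxidase fell by 1.77 and 1.58. These transcripts are short, with a median of 1534 bases, and with the correction for length and GC the median was -0.44, with 17 lower and 2 higher. In the citrate cycle and pyruvate dehydrogenase, 9 of 16 fell and 1 rose, with a median of -0.48, and with the correction 6 were lower and 1 higher with a median of -0.23. In ELA input replicate 2 alone 2 were higher. Pdhb, which feeds pyruvate into the cycle, fell by 1.79 and Suclg1 by 1.16. In glycolysis 2 of 13 rose and 4 fell, with a median of -0.19, while with the correction 5 were higher and 4 lower with a median of 0.12. Ldha (-0.08) and Pkm (0.00) were not called. Its glucose transporters moved in opposite directions. Slc2a1 rose from 647 and 609 normalised counts in ES to 1581 and 1523 in ELA (1.30 ± 0.12). Slc2a3 fell from 1679 and 1726 to 764 and 756 (-1.16 ± 0.12).

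Of all genes 32.3% were called higher. In cholesterol synthesis 6 of 12 genes rose and 1 fell, with a median of 0.50 (0.47 with the correction). Hmgcs1, which makes the precursor of mevalonate, went from 402 and 489 normalised counts in ES to 1435 and 1149 in ELA (1.53 ± 0.13), Sqle, the squalene epoxidase, rose by 1.20, Idi1 by 1.11 and Srebf2, the transcription factor of the pathway, by 0.73. In fatty acid synthesis 6 of 8 rose and 0 fell, with a median of 0.70. With the correction 5 were higher and 2 lower, with a median of 0.66. Acsl4, which activates polyunsaturated fatty acids, went from 171 and 195 to 1229 and 1037 (2.62 ± 0.13), and the elongase gene Elovl5 rose by 1.00. Fasn, the fatty acid synthase, rose by 0.38, but with the correction its change was -0.39.

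Enzymes of serine, folate and threonine use were called lower in 11 of 16, against 32.4% of all genes, with 1 higher (2 with ELA input replicate 2 alone) and a median of -0.70 (-0.60 with the correction). In the list of the amino acid response 7 of 9 fell and 2 rose, with a median of -1.29 (-0.93 with the correction). Asns, the asparagine synthetase, went from 314 and 283 normalised counts in ES to 86.3 and 112 in ELA (-1.59 ± 0.15). Psat1 of serine synthesis fell by 1.60, the amino acid transporter genes Slc7a5 and Slc7a1 by 1.66 and 1.29, and Mthfd2 of mitochondrial folate use by 1.32. Phgdh, the first enzyme of serine synthesis, rose by 0.51, and Ddit4, an inhibitor of mTOR, by 1.59. Per the study's methods, less of a supplement of non-essential amino acids was added to the ELA medium than to the ES medium, on another base medium. The part of the medium was not tested.

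In lists of the machinery of protein synthesis most members were called lower, where 32.4% of all genes were, and for the ribosomal protein lists this did not hold with the correction. Among 13 aminoacyl-tRNA synthetases, 12 were called lower and 0 higher, with a median of -0.84 (-0.69 with the correction). Nars, Rars and Sars fell by 1.07, 1.07 and 1.06, and Mars by 1.17. Among 32 ribosome biogenesis factors 23 fell and 0 rose, with a median of -0.57 (-0.35 with the correction), led by Nop16 (-1.61) and Ebna1bp2 (-1.18). Among 29 translation factors 20 fell and 2 rose (1 with ELA input replicate 2 alone), with a median of -0.38 (-0.31 with the correction). Eif2b1, a subunit of the exchange factor for eIF2, had 123.3 and 113.7 normalised counts in ES and 33.2 and 44.2 in ELA (-1.60 ± 0.17). With 5 and 17 ELA reads, Eif2b1 was 2.90-fold lower on summed reads (counting interval 1.91 to 4.65). Eif4a1, an RNA helicase of initiation, fell by 0.98. The genes of cytosolic ribosomal proteins fell by less but in large number, 33 of 41, with Rps14 alone higher (0.79) and a median of -0.53. Their transcripts are the shortest of any list described here, with a median of 878 bases. With the correction for length and GC their median turned to 0.04, with 9 higher and 5 lower, so their direction depends on that correction. Ribosomal protein genes also have many pseudogenes that could share reads. Among 11 mitochondrial ribosomal protein genes 8 fell and 0 rose with a median of -0.53, but with the correction 5 were lower and 2 higher with a median of -0.16.

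Most listed heat shock chaperones fell as well, against the same 32.4% of all genes. Among 12 heat shock chaperones 9 were called lower and 0 higher, with a median of -0.65 (-0.42 with the correction). With ELA input replicate 2 alone 1 of these and 1 chaperone of the endoplasmic reticulum were called higher. Hspb1 had 168 and 176 normalised counts in ES and 26.6 and 23.4 in ELA, Ahsa1, an activator of Hsp90, fell by 1.36 and Hspd1 of the mitochondrial chaperonin by 0.94. Chaperones of the endoplasmic reticulum fell in 5 of 13, a share near that of all genes, with a median of -0.21 (-0.15 with the correction, and 5 lower and 1 higher) and Hspa5 not called (-0.21, adjusted p = 0.125). Of 24 proteasome subunits 17 fell and 1 rose, with a median of -0.53, but with the correction 10 were lower and 2 higher with a median of -0.13. Psma5 of the core particle fell by 1.43 and Psmc2 of the regulatory particle by 1.25. Of 20 lysosome and autophagy genes 10 fell and 2 rose, and with the correction 7 were lower and 3 higher, among those that fell the lysosomal enzymes Glb1 (-1.70), Ctsb (-1.51) and Ctsd (-1.48), of which Glb1 and Ctsb rest on 3 and 4 reads in ELA input replicate 1. Of 16 antioxidant genes 8 fell and 2 rose, led by Srxn1 (-1.93) and Sod1 (-1.61). With 2 and 6 ELA reads, Srxn1 was 3.94-fold lower on summed reads (counting interval 1.98 to 9.17). With the correction 6 antioxidant genes were lower and 6 higher and the median went from -0.26 to 0.12. The median was -0.11 with ELA input replicate 2 alone. Of 8 p53 target genes 3 rose, 2 fell and 3 were not called, close to the shares of all genes, and those that rose were Btg2, Trp53inp1 and Ccng1 (1.87, 1.49 and 0.92). With ELA input replicate 2 alone 4 were called higher and 0 lower, and with the correction 4 and 1. Of 10 apoptosis regulators 2 rose, 3 fell and 5 were not called, with a median of 0.00 (-0.02 with ELA input replicate 2 alone), and with the correction 3 were higher and 3 lower. Mcl1, an inhibitor of apoptosis, fell from 1390 and 1506 to 611 and 515 (-1.37 ± 0.13).

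**Figure D5:**
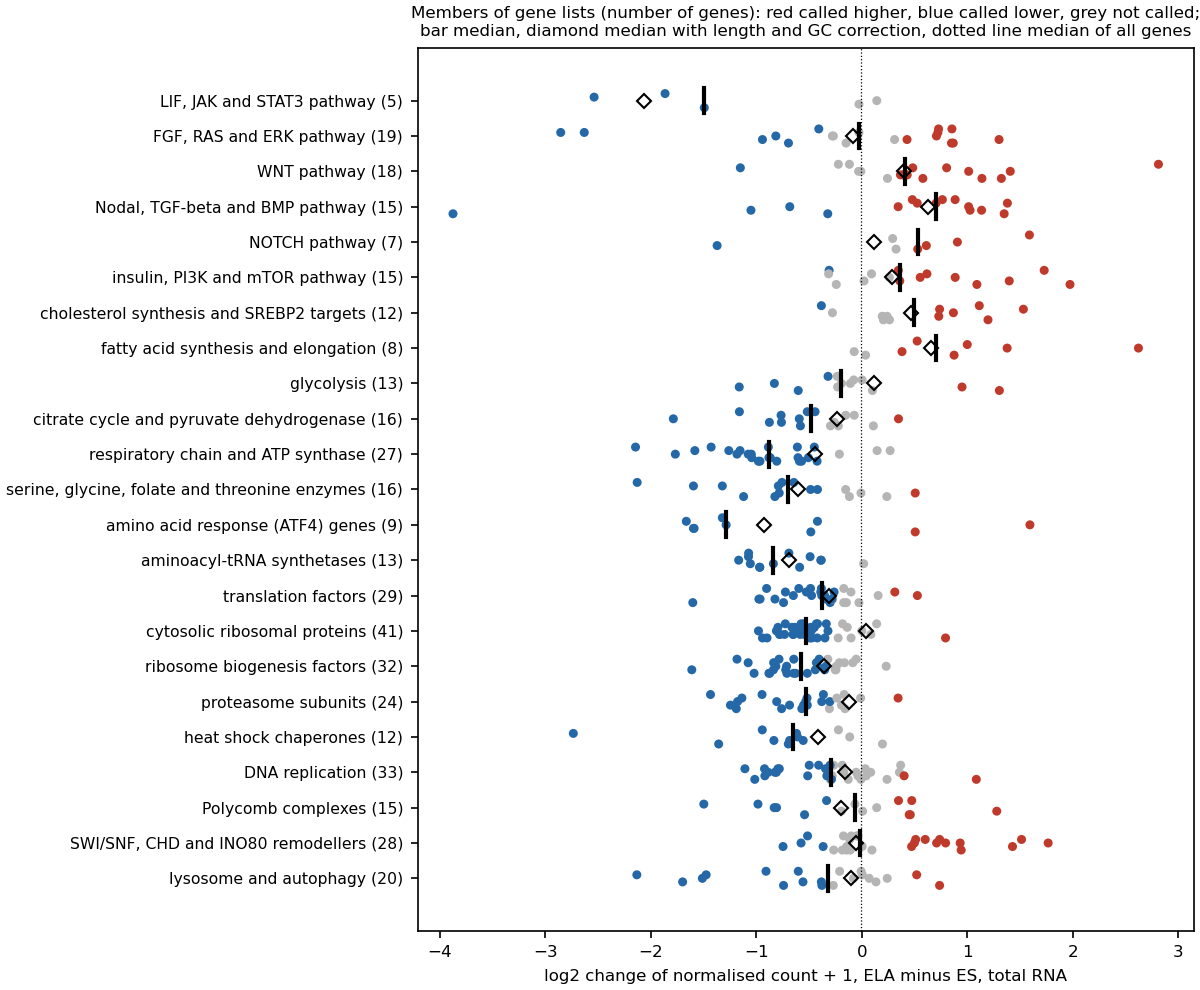
Log2 change in total RNA (x axis, ELA minus ES) of every member of 23 gene lists, the number of members in brackets. Red and blue points were called higher or lower and grey points were not called, bars are medians, diamonds are medians with the length and GC correction, and the dotted line is the median of all genes, -0.01. Tdgf1, at -3.88, is the leftmost point, and the diamond of the cytosolic ribosomal proteins lies at 0.04 while their bar lies at -0.53.

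Cell cycle lists had medians nearer to 0, and several of their counts lay near or below the 32.3% of all genes called higher and 32.4% called lower. In the DNA replication list 16 of 33 fell and 2 rose, with a median of -0.29 (-0.16 with the correction), and Ticrr, a factor that starts origins, fell by 1.11 and Rfc2, a clamp loader subunit, by 1.01, while the topoisomerase gene Top1 rose by 1.09. In the mitosis list 8 rose and 9 fell of 32, with a median of -0.04 (-0.14 with the correction and 0.03 with ELA input replicate 2 alone). Stag2, a cohesin subunit, rose by 1.17 and Ect2, which is needed to divide the cell, fell by 0.86. Of 10 genes that control entry into S phase 3 fell and 1 rose (median -0.23, -0.11 with the correction, and 5 lower with ELA input replicate 2 alone), with Ccnd3, a D cyclin, at -1.35 and Ccnd1 not called (0.00). Of 31 DNA repair genes 12 fell and 5 rose (median -0.17, -0.34 with the correction), led by Xrcc6 (-1.30) and Xrcc5 (-0.95), which form the Ku complex.

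The counts in families of chromatin genes are to be read against the 32.3% of all genes called higher and 32.4% called lower, and several lay near them. Of 9 genes of DNA methylation and demethylation 3 rose and 5 fell, and with the correction 1 was higher and 4 lower. Their median was -0.35, and -0.59 with ELA input replicate 2 alone. Beside the rise of Dnmt3b, Tet1, which oxidises methylcytosine, went from 1582 and 1700 normalised counts in ES to 917 and 803 in ELA (-0.93 ± 0.12), and Uhrf1, the partner of the maintenance methyltransferase, fell by 0.69. Of 15 Polycomb genes 5 rose and 6 fell, and with the correction 3 were higher and 7 lower. Eed, a core subunit of the second Polycomb complex, went from 674 and 651 to 239 and 229 (-1.50 ± 0.13), its partners Mtf2 and Ezh2 fell by 0.98 and 0.54, and the chromodomain genes Cbx6 and Cbx7 went in opposite directions (1.28 and -0.83). Of 28 chromatin remodellers 12 rose and 4 fell, with a median of -0.02, and with ELA input replicate 2 alone 7 were called lower. Chd7, a remodeller of enhancers, rose from 490 and 456 to 1813 and 1432 (1.77 ± 0.13), Arid2 rose by 1.51 and Smarcc2 by 1.43. With the correction for length and GC 7 were higher and 9 lower, and these transcripts are long, with a median of 6150.5 bases. Among histone methyltransferases and acetyltransferases Kmt2e and Setd7 rose by 2.10 and 1.96 and Kat2b and Kat6b fell by 1.75 and 1.67, in all 10 of 23 up and 8 down with a median of 0.28. With the correction 8 were up and 11 down, with a median of -0.21. Of 12 lysine demethylases 3 rose and 5 fell, with Kdm3a at -1.39, and with the correction 0 were higher and 7 lower. Of 6 histone genes 3 rose, 0 fell and 3 were not called, with a median of 0.51 (0.53 with the correction). The linker histone gene H1f0, known from cells that slow their cycle, rose from 26.1 and 26.4 to 213 and 179 (2.85 ± 0.17), and Hist1h1a by 1.50.

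Among RNA-binding proteins, the calls in the splicing and microRNA lists lay near the 32.3% of all genes called higher and 32.4% called lower. Of 59 splicing factors and hnRNP proteins 17 rose and 19 fell, with a median of -0.14 (0.00 with the correction). Hnrnpa0 and Hnrnpa3 rose by 1.84 and 1.64, and Ptbp2, the neural relative of the splicing repressor Ptbp1, by 1.12, while Cdc5l, a core spliceosome factor, fell by 1.42. In the microRNA pathway 4 of 11 rose and 3 fell with a median of 0.17, and with the correction 4 were higher and 6 lower with a median of -0.26. Mov10, an RNA helicase that works with Argonaute, went from 139 and 144 normalised counts in ES to 39.9 and 28.6 in ELA (-2.03 ± 0.17). With 6 and 11 ELA reads, Mov10 was 4.44-fold lower on summed reads (counting interval 2.76 to 7.65). Tnrc6c and Tnrc6b, the partners that carry out silencing, rose by 1.11 and 1.07, and Ago2 was not called (0.17, adjusted p = 0.269). For Tnrc6c and Tnrc6b the change with the correction was 0.46 and 0.41. Rian, a noncoding RNA of an imprinted cluster that stays mostly in the nucleus, rose from 802 and 782 to 1787 and 1944 (1.23 ± 0.12), in a lysate from which nuclei had been removed in both stages. The part of nuclear RNA carried into the lysate was not tested. No mitochondrially encoded gene was in the table.

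At the cell surface, 11 of 26 adhesion and junction genes rose and 8 fell, near the 32.3% and 32.4% of all genes, with a median of 0.14. With the correction 9 were higher and 12 lower, with a median of -0.14. Cdh1, which encodes E-cadherin, had 1195 and 1166 normalised counts in ES and 1694 and 1708 in ELA (0.53 ± 0.12). Celsr2, a cadherin of planar polarity, rose by 1.85 and Robo1, a guidance receptor, by 1.73, while the tetraspanin gene Cd9 fell by 1.44 and the ephrin receptor gene Epha4 by 1.46. Of 12 matrix genes 6 rose and 6 fell (median 0.06, -0.18 with the correction and 0.03 with ELA input replicate 2 alone). Fn1, fibronectin, went from 1309 and 1183 to 465 and 353 (-1.62 ± 0.13), and Nid2 of the basement membrane fell by 1.75, as the laminin genes Lama1, Lamb1 and Lama5 did by less. Fras1, which anchors basement membranes, rose by 2.10, and the proteoglycan genes Gpc4 and Vcan by 1.14 and 0.97.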

How the data were processed

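Per the methods, the authors aligned the reads (TopHat2, mm10), counted them by gene (HTSeq) and divided the counts by size factors from DESeq2. Tool versions and the strand used in counting are not given in the sources used here, so reads of overlapping antisense genes cannot be told apart. The deposited signal values are these normalised counts, and the authors kept genes with a mean of at least 50 in ES or ELA and a standard deviation within 20% of the mean of the replicate ratios. Within each library the values were whole multiples of 1 step, taken as 1 read. The table holds 0 per-sample columns of no sample here and 26 further deposited columns (means, SDs, ratios and fold changes of ribosome loading), which were not used. Nothing in the labels says that replicates came from separate cultures, so p-values measure the spread between these libraries only. The source label of the second input replicate of both stages gives the number of the first, against title and description, and the titles were used, so a shared source within a stage cannot be told from these labels.

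Here the reads of the 4 input libraries were scaled by trimmed means of M values (30% and 5% trimmed) and tested on log2(normalised count + 1) with limma 3.58.1 in R 4.3.3 (lmFit, eBayes with a trend), with 1 coefficient per group, Benjamini-Hochberg adjustment over 3160 genes and a threshold of 0.05. The log2 scale with a pseudocount of 1 understates changes of low genes. The prior had 87.8 degrees of freedom, so the smallest p-values lean on a variance pooled over genes. Scripts were tested on simulated data. Intervals on summed reads are exact and binomial and cover counting error only. Length and GC content came from Gencode transcripts of an older build for 3120 genes and were corrected by loess (span 0.5) in each library. Coordinates and promoters came from RefSeq tables of GRCm38.p6.

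Named genes were the 12 largest rises and falls among called genes whose groups did not overlap (rises with at least 10 reads in ELA input replicate 2, falls with at least 100 reads in each ES library), up to 4 called members of each of 54 gene lists with the largest change plus the members that define a list, and 10 markers of the study, of which 4 were in the table. Other list members that are named were chosen after their values were seen. Results of some genes are not reported here. The lists and genes were chosen with earlier results of these data known.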

Additional observations from a re-analysis of the deposited data

Results flagged for a closer look

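Among the listed genes and the largest changes, with a call over 2-fold in total RNA and a call in ribosome-bound RNA, 3 moved in the opposite direction in the RNA recovered with ribosomes, with every ELA library on the other side of the ES libraries in each kind of RNA. Hist1h1a, a linker histone gene, rose by 1.50 on the log2 scale in total RNA and had a change of -1.09 in ribosome-bound RNA. Hnrnpa3, an RNA-binding protein gene, had 1.64 and -0.60. Ticrr, a factor of replication origins, had -1.11 in total RNA and 0.29 in ribosome-bound RNA. The number of genes that met both calls was not counted, so no share stands beside these 3. The difference between the kinds of RNA was not tested here.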

How the results depend on the processing

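Of the 15 alternatives run, each that kept 2 libraries per stage still called, in the same direction, every larger change that it tested. The length and GC correction tested 562 of the 574 larger changes, and the filter at 10 reads on average tested 511. Calls ranged from 1341 (without ES input replicate 1) to 2182 (without ELA input replicate 2) when a library was left out, those lower in ELA from 649 to 1101, those higher from 692 to 1090, larger rises from 323 to 342 and larger falls from 237 to 262. Over the settings with 2 libraries per stage the calls lay between 1956 and 2219. With the authors' size factors, 860 genes were called higher and 1215 lower. The replicate number as a block gave 2110 calls, and 1978 together with the correction for length and GC. Same-numbered libraries had deviations that correlated with r = 0.154 over genes, from 2 pairs whose shared number is only a label, and the block changed no call of a larger change. With the length and GC correction, alone or with the block, the median of the cytosolic ribosomal protein genes turned from -0.53 to 0.0436 and the value of Uty, a Y-linked demethylase gene, from 0.57 to -0.0473. List medians nearer to 0 also changed sign: glycolysis (-0.19 to 0.12), antioxidant genes (-0.26 to 0.12), splicing factors (-0.14 to 0.00), the microRNA pathway (0.17 to -0.26), histone methyltransferases and acetyltransferases (0.28 to -0.21), adhesion (0.14 to -0.14), matrix (0.06 to -0.18) and germ line genes (-0.01 to 0.02). Of 2946 values of named genes under the alternatives 2897 kept direction and side of the threshold, 47 lost the call and 2 turned, and 152 of 748 list medians moved by more than the spread between libraries. A filter at 10 reads on average in each group kept 3071 genes and 175 larger falls. Count models were planned as alternatives and were not run, and the reads read back from the deposited values were tested on the log scale only. Depth limits the falls, with 26 reads per gene at the median in ELA input replicate 1. The size of a fall in genes with few ELA reads is known only within its counting interval. Such intervals are given for Icam1, Pdzd2, Bre, Lrrc2, Hspb1, Pdgfc, Fgf4, Stat3, Bmp4, Ndufa9, Eif2b1, Srxn1 and Mov10. The cause of these shifts was not tested.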
